A study of Mus musculus with 58 samples.

Results

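Proteasome subunit genes were measured in the striatum of a pair of mouse lines, named 3g and 16p11.2. The members are the genes whose symbols start with Psma, Psmb, Psmc or Psmd followed by a digit, without genes marked -ps, that appear in all 6 count tables of the series. This gave 40 genes, of 54532 gene identifiers in the RNA-seq tables and 18411 in the lysate RNA and footprint tables. By their known roles they are 8 genes of the alpha ring, 7 constitutive genes of the beta ring and 4 inducible or thymic ones. The rest are 6 ATPases, 11 non-ATPases and 3 assembly chaperones of the regulatory particle, and Psmc3ip. Psmc3ip encodes a meiotic recombination protein and matched only by its symbol.

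Mice of the 3g line labelled del/+ carry premature stop codons, made by CRISPR/Cas9, in 1 copy each of Taok2, Sez6l2 and Mvp, and mice of the 16p11.2 line labelled del/+ lack 1 copy of the mouse counterpart of the human 16p11.2 interval. The wt groups are littermates in each line, all animals are labelled strain B6129S, and the study describes its mice as young adults a few months old. The 16p11.2 line was bought from a supplier and the 3g line was made at the study's institution. RNA-seq was done on the striatum of 32 mice, with 4 libraries in each of 8 groups set by line, genotype and sex. Lysate RNA and ribosome footprints, which are the RNA fragments protected by ribosomes, were sequenced from the same striatal lysates of other male mice, namely 3 del/+ and 3 wt animals of the 3g line and 3 del/+ and 4 wt animals of the 16p11.2 line. The labels name no agent for any group.

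The proteasome degrades proteins that carry ubiquitin chains. Its barrel-shaped 20S core has outer rings of alpha subunits that gate the entrance and inner rings of beta subunits, of which Psmb5, Psmb6 and Psmb7 cut proteins. The 19S regulatory particle caps the core, where 6 ATPases unfold the substrate and non-ATPase subunits bind and remove the ubiquitin. In immune cells, and after interferon, Psmb8, Psmb9 and Psmb10 replace the cutting subunits. The subunit genes are transcribed together in part through antioxidant response elements bound by NRF1 and NRF2, the products of Nfe2l1 and Nfe2l2. In neurons the proteasome is known for its part in protein turnover at synapses.

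Library totals ranged from 11711099 to 65529807 counts in 3g RNA-seq and from 26592767 to 41300015 in 16p11.2 RNA-seq. Lysate RNA libraries held between 15102576 and 19122488 counts, and footprint libraries between 342052 and 678130. The 40 genes took 0.234 to 0.309% of the RNA-seq counts, and 28610 to 166268 counts in a library. In the footprint libraries they took 258 to 856 counts, so that each subunit rested on 0 to 51 footprints in a library. All 40 genes passed edgeR's filter on low counts across the RNA-seq libraries, 38 passed in lysate RNA (not Psma8 and Psmb11) and 29 in footprints. Sez6l2 was between 189 and 225 CPM in 3g del/+ and between 274 and 336 CPM in 3g wt RNA-seq males (CPM, counts scaled to a common library size, with TMM factors over the 32 libraries), and Mvp was between 5.87 and 6.31 CPM in 3g del/+ females against 8.22 to 8.84 in wt. Taok2 was not lower in 3g del/+ males (156 to 197 CPM against 176 to 182) and was between 83.2 and 94.9 CPM in 16p11.2 del/+ males against 153 to 183 in wt. All 9 striatal projection neuron markers checked were above 0 in every RNA-seq library.

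Of the RNA-seq libraries, 3 stood apart from the others of their line or from their sex label. In the library labelled 3g wt male 17, 37 of the 40 genes were above all other 15 libraries of the 3g line (30.3% of 20342 genes over all), and 39 of the 40 were within the range of the other 16p11.2 libraries (93.9% of all genes). In the library labelled 16p11.2 del/+ male 4, 35 of the 40 genes were below all other 15 libraries of the 16p11.2 line (23.3% of all genes), and 28 were within the range of the other 3g libraries (69.5% of all genes). Its Taok2 level lay in the range given above for 16p11.2 del/+ males, below that of wt males, as its genotype label says. In the library labelled 16p11.2 del/+ female 1 the Y-linked gene Ddx3y was at 38.5 CPM and Xist at 0.462 CPM, while Ddx3y was at 0 in the other female libraries. The counts and medians of the RNA-seq comparisons that use one of these libraries are given with and without it.

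Because the members moved together between the lines in RNA-seq, the stretches before the start sites of 4 of them are shown. RefSeq promoter windows of 300 bases, 250 before and 50 after the start site on GRCm38.p6, were at hand for 33 of the 40 symbols (35 windows). Psma8, Psmb1, Psmb2, Psmb7, Psmc3, Psmd3 and Psmd7 had no entry. The 250 bases before the start site are printed along the strand of the gene, with matches to TGANNNNGC, the loose form of the antioxidant response element, in capitals. Psmb5, the chymotrypsin-like subunit, is at chr14:54617996-54618245 (minus strand), Psmb6, the caspase-like subunit, at chr11:70525107-70525356 (plus strand), Psmb10, an inducible subunit, at chr8:105938393-105938642 (minus strand), and Psmc5, an ATPase, at chr11:106255935-106256184 (plus strand). Psmb10 and Psmc5 are shown because they had among the largest line differences, and Psmb5 and Psmb6 for the comparison.
Psmb5: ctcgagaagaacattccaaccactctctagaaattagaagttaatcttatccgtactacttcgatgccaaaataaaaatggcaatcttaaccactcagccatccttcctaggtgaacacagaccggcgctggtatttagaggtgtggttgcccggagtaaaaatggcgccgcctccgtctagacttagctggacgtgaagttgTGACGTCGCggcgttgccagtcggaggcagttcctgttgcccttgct
Psmb6: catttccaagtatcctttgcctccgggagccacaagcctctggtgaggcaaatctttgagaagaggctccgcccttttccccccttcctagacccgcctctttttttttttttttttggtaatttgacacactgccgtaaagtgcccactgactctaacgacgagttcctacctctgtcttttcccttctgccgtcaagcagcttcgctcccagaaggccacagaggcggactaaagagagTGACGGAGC
Psmb10: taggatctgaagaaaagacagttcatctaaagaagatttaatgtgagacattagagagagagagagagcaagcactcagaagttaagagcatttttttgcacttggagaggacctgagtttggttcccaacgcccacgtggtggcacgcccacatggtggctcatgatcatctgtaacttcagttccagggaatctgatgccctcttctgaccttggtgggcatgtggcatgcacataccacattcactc
Psmc5: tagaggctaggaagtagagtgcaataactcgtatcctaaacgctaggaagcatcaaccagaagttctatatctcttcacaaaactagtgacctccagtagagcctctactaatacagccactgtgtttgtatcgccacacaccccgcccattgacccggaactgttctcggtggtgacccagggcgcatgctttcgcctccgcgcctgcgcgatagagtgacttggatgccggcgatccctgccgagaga

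The match began 47 bases before the start site in Psmb5 and 9 bases before it in Psmb6, and Psmb5 had another match in the 50 bases after it. No match was found in the windows of Psmb10 and Psmc5. Over both strands, TGANNNNGC was in 21 of the 35 member windows (60%) and in 41.3% of all 32851 windows. The full element TGACTCAGC, which TGANNNNGC includes, was in 0 of the 35 member windows and in 0.454% of all windows. CCAAT was in 14 of the 35 member windows (40%) and in 37.4% of all windows. A match is a description of these letters and not a site of binding.

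The first comparison asked whether the wt animals of both lines had the same levels of proteasome mRNA. In wt females, most subunit genes were higher in the 16p11.2 line than in the 3g line. Psmc5 was 113, 111, 109 and 116 CPM in the 3g wt females and 188, 199, 186 and 164 CPM in the 16p11.2 wt females. The groups did not overlap, with means of 112.2 ± 3.05 and 184 ± 14.8 CPM (SD, n = 4 each) and the 16p11.2 level was higher by 0.70 ± 0.06 on the log2 scale (SE, adjusted p = 1.21e-05 in edgeR's quasi-likelihood test, which is used for every adjusted p given here). Psmb5 was 36.4, 34.7, 36.8 and 38.4 CPM in 3g and 53.4, 51.1, 54.3 and 47.8 CPM in 16p11.2, higher by 0.48 ± 0.05 on the log2 scale (adjusted p = 4.01e-05). These values of Psmb5 did not overlap between the lines either.

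**Figure D1:**
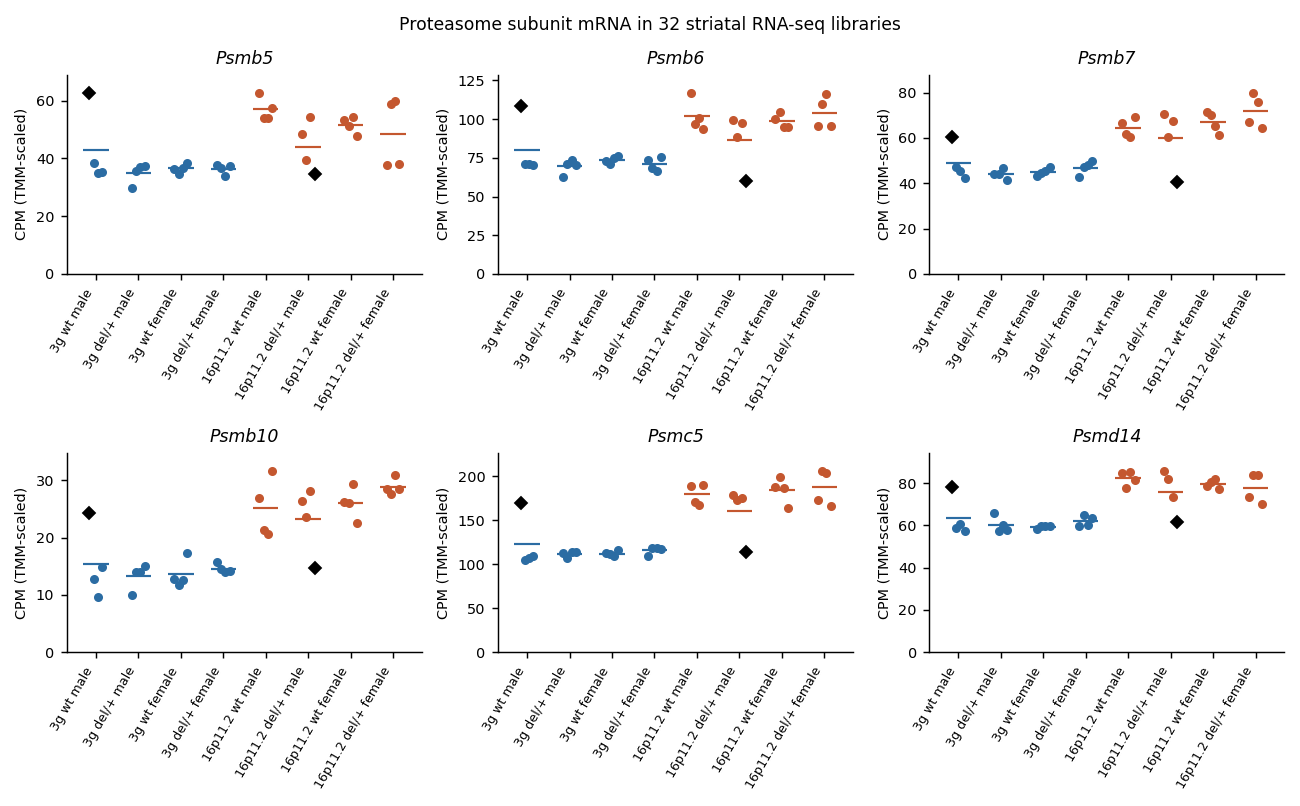
CPM (TMM-scaled, linear axis from 0) of 6 subunit genes in the 32 RNA-seq libraries, one point per library, with blue for the 3g and orange for the 16p11.2 line, a bar at each group's mean, and black diamonds for 3g wt male 17 and 16p11.2 del/+ male 4. The 16p11.2 libraries lie above the 3g libraries except for those diamonds and for Psmb5, where 2 of the 4 16p11.2 del/+ females are at 37.6 and 37.9 CPM and the highest of the remaining 3g libraries is at 38.4 CPM.

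Of the 40 genes, 34 were called higher in 16p11.2 wt females and none lower, beside 29.8% of the 19013 genes tested that were called higher. The median log2 fold change was 0.36 over the 40 genes and -0.0068 over all genes tested, of which 5660 were called higher and 5725 lower. By role, 7 of 8 alpha ring genes were called higher (median log2 fold change 0.41), with Psma6 at 0.68 and Psma2 at 0.60, and Psma3 at 0.34 ± 0.04. All 7 constitutive beta ring genes were called higher (median 0.48), among them the cutting subunits Psmb6 (0.41 ± 0.05) and Psmb7 (0.56 ± 0.06), and Psmb1 (0.58). Psmb7, the trypsin-like subunit, was between 43.0 and 47.1 CPM in 3g and between 61.5 and 71.3 CPM in 16p11.2 wt females.

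All 6 ATPases were called higher (median log2 fold change 0.40). After Psmc5 came Psmc1 (0.52 ± 0.05), Psmc3 (0.47 ± 0.05), Psmc2 (0.33 ± 0.06), Psmc6 (0.21 ± 0.05) and Psmc4 (0.19 ± 0.05, adjusted p = 0.00696). The differences of single ATPases thus ran from 0.19 to 0.70 on the log2 scale. Of the 11 non-ATPases, 10 were called higher (median 0.28), including the scaffolds Psmd1 (0.28 ± 0.04) and Psmd2 (0.23 ± 0.04), the ubiquitin receptor Psmd4 (0.20 ± 0.05) and the deubiquitinase Psmd14 (0.41 ± 0.04). Psmd14 was between 58.3 and 59.9 CPM in 3g and between 77.1 and 82.0 CPM in 16p11.2 wt females. Psmd3, another subunit of the lid, had a log2 fold change of 0.09 ± 0.04 and was not called (adjusted p = 0.0752). The assembly chaperones Psmd10 (0.75 ± 0.09) and Psmd5 (0.26 ± 0.04) were called higher, and Psmd9 (0.12) was not.

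Of the 4 inducible or thymic subunits, 2 were called higher. Psmb10 was 12.8, 11.8, 12.7 and 17.4 CPM in the 3g wt females and 26.3, 26.1, 29.3 and 22.5 CPM in the 16p11.2 wt females, higher by 0.91 ± 0.12 on the log2 scale (adjusted p = 0.000123), and the groups did not overlap. Psmb8 (0.26 ± 0.17, adjusted p = 0.201) and Psmb9 (0.0035 ± 0.22, adjusted p = 0.99) were not called and lay between 0.753 and 2.13 CPM in all 8 libraries. Psmb11, the thymic form, was called higher (1.90 ± 0.37, adjusted p = 0.00135), on 5, 6, 4 and 17 counts in 3g and 14, 14, 23 and 24 counts in 16p11.2. Tap1, an interferon-inducible peptide transporter, was called lower in 16p11.2 wt females (-0.609, adjusted p = 0.00524). Psma8, the testis form of the alpha ring, had 5 to 31 counts in these libraries, and it and Psmc3ip (0.10) were not called.

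In wt males the same comparison depended on the library labelled 3g wt male 17. With all 8 libraries edgeR called 0 of the 40 genes, beside 0.0162% of all genes tested in either direction, and 25 of the 40 had an unadjusted p under 0.05. DESeq2 called 13 of the 40 higher, beside 7.46% of the genes it was given. The median log2 fold change of the 40 genes was 0.27 and 38 were above 0. Without 3g wt male 17, 31 of the 40 were called higher and none lower, beside 23.5% of all genes tested that were called higher, with a median of 0.40. Psmb5 was 62.5 CPM in that library and 38.4, 35.1 and 35.4 CPM in the other 3g wt males, against 62.7, 54.0, 54.0 and 57.5 CPM in 16p11.2 wt males. The log2 fold change of Psmb5 was 0.40 ± 0.17 with the library (adjusted p = 0.13) and 0.64 ± 0.08 without it (adjusted p = 0.000694).

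The genes called in males without 3g wt male 17 were also called in females, where no library is shared. That library was left out after its values of these same genes were seen, so the male calls are not an independent check of the female ones. All 31 were among the 34 called in females, which is 100% of the male and 91.2% of the female calls. Over all genes, 90.6% of the male and 69.9% of the female calls were shared with the same sign. So 31 of the 40 genes were called in both, beside 42.1% of all genes tested in both. The sign of the fold change was the same for 40 of 40 genes and for 88.7% of all genes. The 3 genes called in females and not in males were Psmc6 (0.08 ± 0.08 in males), Psmd1 (0.24 ± 0.09) and the lid subunit Psmd11 (0.11 ± 0.07). The difference between the sexes was tested as an interaction of line and sex in the wt libraries. It was called for 0 of the 40 genes by edgeR with 0 at an unadjusted p under 0.05, and for 0 by DESeq2, beside 0% of all genes, and also for 0 without 3g wt male 17, again beside 0% of all genes. The reads of Psmd1 lie in a locus that overlaps Htr2b, those of Psmd10 overlap Atg4a and those of Psma3 overlap a long non-coding RNA, and the strand setting of the counting is not given in the sources used here, so these 3 values are less certain.

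Markers of other cells moved with the line as well. Slc17a7 and Tbr1, which mark cortical neurons, summed to 104 to 509 CPM in 3g and 730 to 1105 CPM in 16p11.2 wt females, and both were called higher (Slc17a7, 1.91, adjusted p = 0.00362). Mbp, which marks oligodendrocytes, was called higher (0.962, adjusted p = 0.00013). The endothelial marker Flt1 (-1.12) and the microglial marker P2ry12 (-0.565) were called lower. The 9 striatal projection neuron markers summed to 6410 to 7257 CPM in 3g and 5903 to 7963 CPM in 16p11.2. The part of these cells in the line difference of the proteasome genes was not tested, and in bulk tissue more cells of a type and more RNA per cell cannot be told apart. The lines also cannot be told apart from their strain background, or from the time and place at which each was bred, dissected and sequenced.

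The line difference was then compared with that of other housekeeping lists. In wt females 73 of 81 cytosolic ribosomal protein genes were called higher (median log2 fold change 0.62), 77 of 82 nuclear genes of oxidative phosphorylation (0.54), 60 of 77 mitochondrial ribosomal protein genes, with 3 lower (0.36), 13 of 17 Sm and LSm genes of the splicing machinery (0.39), 8 of 8 genes of the CCT chaperonin (0.21) and 9 of 12 RNA polymerase II subunits, with 1 lower (0.34). The median of the proteasome genes, 0.36, lay within the range of these lists. Transcript lengths were not used here, so whether the lists share short transcripts was not tested.

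The shift of each library was taken as the median over a list of log2(CPM + 1) minus the mean of that gene over the 32 libraries. For the 40 proteasome genes it was between -0.243 and -0.125 (median -0.189) in 15 of the 3g libraries and ranged from 0.034 to 0.274 (median 0.211) in 15 of the 16p11.2 libraries. It was 0.184 in 3g wt male 17 and -0.267 in 16p11.2 del/+ male 4. The lines did not overlap apart from these 2 libraries, and in 23 of the 40 genes the lowest of the 15 libraries of the 16p11.2 line was above the highest of the 15 of the 3g line, beside 12.8% of all genes. The cytosolic ribosomal protein genes shifted further in both lines, with -0.44 to -0.264 in 3g, 0.042 to 0.678 in 16p11.2, 0.435 in 3g wt male 17 and -0.503 in 16p11.2 del/+ male 4. RNA polymerase II subunits shifted by -0.283 to -0.123, 0.0412 to 0.304, 0.296 and -0.252 in the same order.

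**Figure D2:**
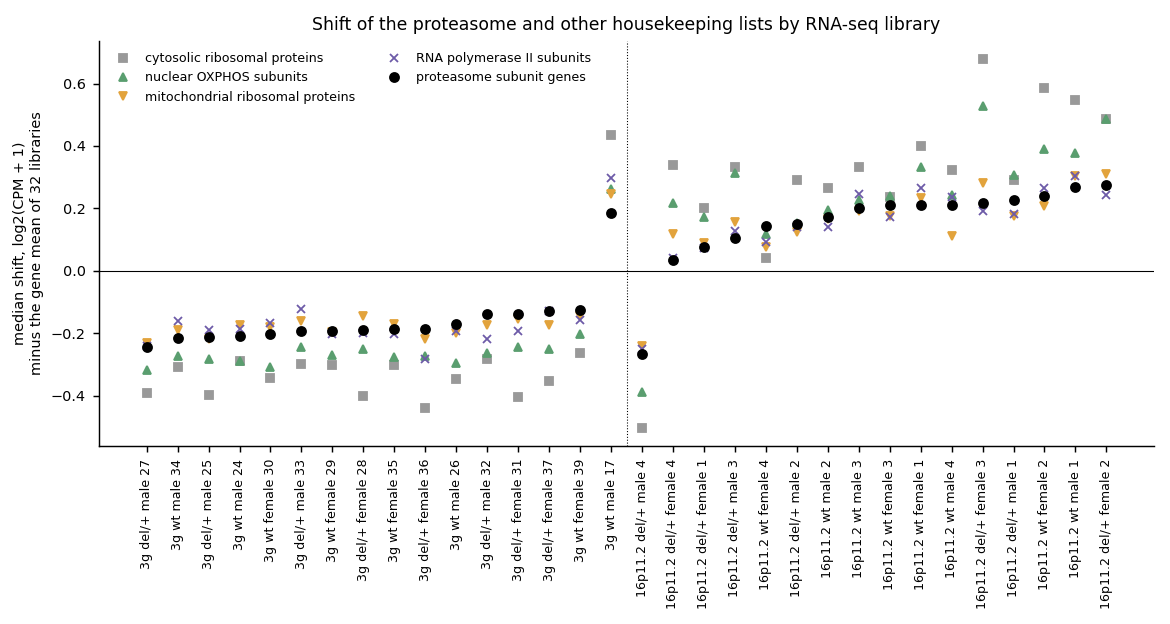
Median shift in log2(CPM + 1) of the proteasome genes (black circles) and 4 other lists in each of the 32 RNA-seq libraries, ordered by the proteasome shift within each line, with a dotted line between the 3g libraries (left) and the 16p11.2 libraries (right). The lists are below 0 in 15 of the 3g libraries and above 0 in 15 of the 16p11.2 libraries, and the libraries next to the dotted line, 3g wt male 17 and 16p11.2 del/+ male 4, have the opposite sign.

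Within a line, the library shifts of the lists went with each other to different degrees. Across the 16 libraries of the 16p11.2 line, the proteasome shift followed that of RNA polymerase II subunits with Pearson's r = 0.968 and Spearman's rho = 0.874, and r was 0.865 without the 2 libraries farthest from the median. With cytosolic ribosomal protein genes r was 0.853, rho 0.645, and r was 0.544 without the 2 farthest libraries. Across the 16 libraries of the 3g line, r with cytosolic ribosomal protein genes was 0.923, but rho was 0.235 and r was 0.213 without 3g wt male 17 and del/+ female 36, so the value rested on these libraries. With the oxidative phosphorylation genes in 3g, r was 0.97, rho 0.709 and r without the 2 farthest libraries 0.644. These values describe libraries that share depth and dissection, and no test was made on them.

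Partner genes of the proteasome were called in both directions. Of 22 genes for activators, core assembly factors, other bound proteins and transcription regulators, 12 were called higher and 1 lower in 16p11.2 wt females (median log2 fold change 0.20), and of 16 genes that supply and deliver ubiquitin, 9 were called higher and 3 lower (0.16). Among those with the largest changes were Rps27a (0.66), which encodes ubiquitin fused to a ribosomal protein, the deubiquitinases Uchl5 (0.57) and Uchl1 (0.52), the shuttle Ubqln4 (0.48) and the assembly chaperone Psmg3 (0.42). Rps27a has near-identical copies in the genome, so its count is uncertain. Chosen after their values were seen, Nfe2l1 was called higher (0.33 ± 0.05) and Nfe2l2 was not called (-0.01 ± 0.09). In males without 3g wt male 17, 8 of the 22 were called higher and 2 lower, and 7 of the 16 higher and 0 lower, with 8 of the 16 at an unadjusted p under 0.05. Over all genes, 29.8% were called higher and 30.1% lower in wt females, and 23.5% and 22.8% in these males.

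In the lysate RNA of other wt males edgeR called no line difference of a proteasome gene, and DESeq2 called 2. Psmc5 was 84.7, 79.6 and 62.6 CPM in the 3 animals of the 3g line and 89.4, 111, 97.6 and 105 CPM in the 4 animals of the 16p11.2 line. These groups did not overlap, and the log2 fold change was 0.42 ± 0.12 (adjusted p = 0.253). Psmb5 was 8.15, 7.73 and 7.25 CPM in 3g and 8.12, 6.58, 5.24 and 7.50 CPM in 16p11.2, with overlapping groups and a difference of -0.16 ± 0.16 on the log2 scale (adjusted p = 0.788). EdgeR called 0 of 37 genes tested, with 8 at an unadjusted p under 0.05, beside 0.0139% of all genes in either direction. The 2 genes called by DESeq2 were higher, beside 0.812% of the genes it was given. The median log2 fold change was 0.08, against -0.0022 over all genes tested. By role it was 0.21 for the ATPases, 0.09 for the non-ATPases, 0.02 for the alpha ring and -0.09 for the constitutive beta ring.

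The other housekeeping lists also had small medians in lysate RNA, from 0.03 for the mitochondrial ribosomal protein genes to 0.11 for the cytosolic ribosomal protein genes, of which 1 was called. The cortical markers overlapped between the lines in these libraries, with 156 to 366 CPM in 3g and 150 to 418 CPM in 16p11.2 wt males, and Slc17a7 was not called (0.137, adjusted p = 0.912). The difference between the assays was not tested, since RNA-seq and lysate RNA come from other animals and other preparations.

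**Figure D3:**
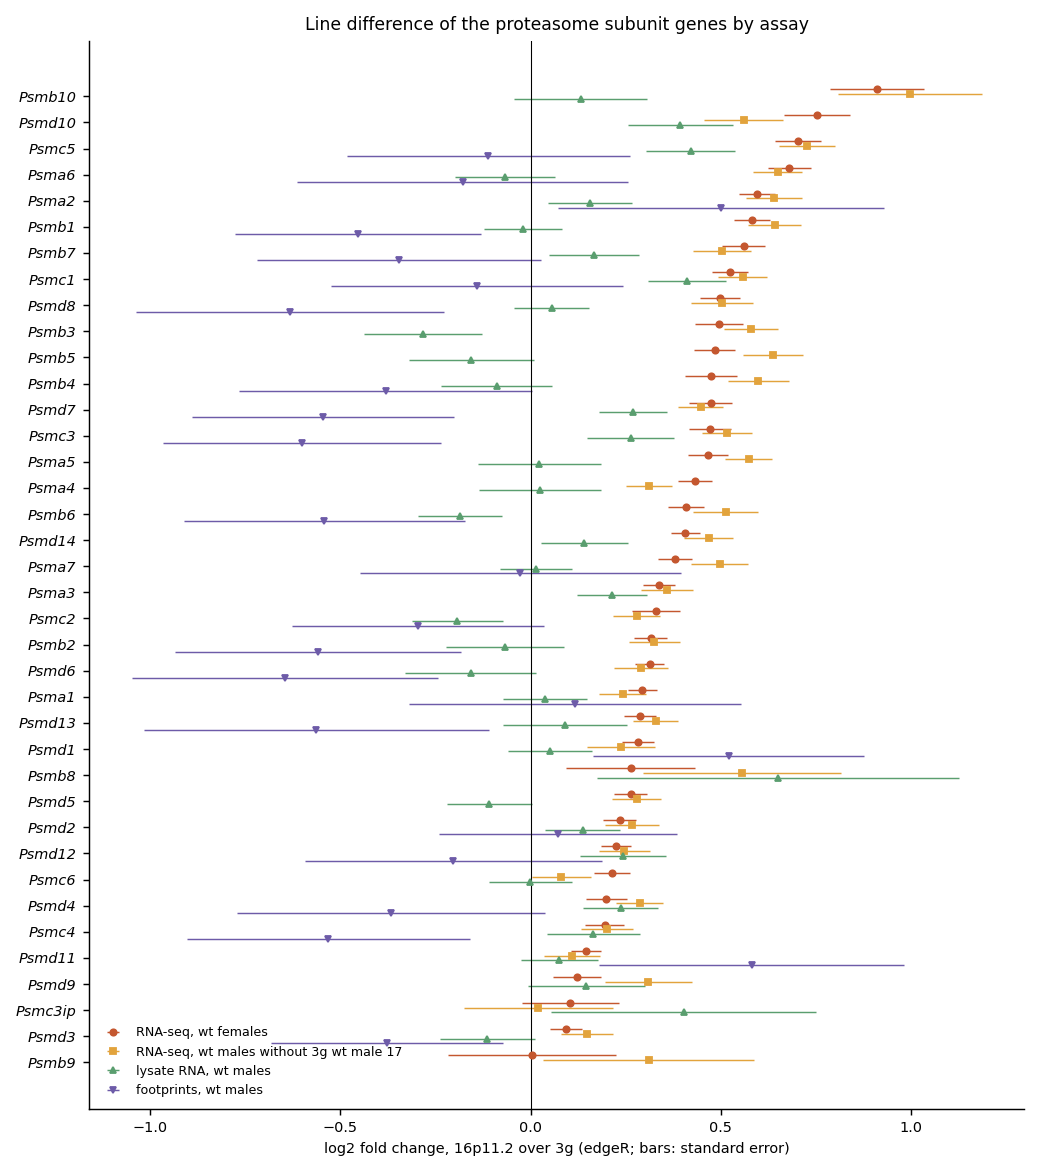
Log2 fold change of 16p11.2 over 3g wt animals with its standard error for 38 of the 40 genes (Psmb11 and Psma8, with few counts, are left out), by assay and ordered by the value in RNA-seq of wt females. The RNA-seq points, which for males leave out 3g wt male 17, lie to the right of 0 in both sexes, the lysate RNA points scatter around a median of 0.08, and most footprint points are left of 0 with wide bars.

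In footprints most line differences were below 0 and none was called. Of 24 genes tested, 5 were above 0 and 19 below in 16p11.2 wt males, with a median log2 fold change of -0.36 against -0.0036 over all genes, and of -0.19 without the 3g wt animal RIBO-301. EdgeR called 0 of the 24, with 0 at an unadjusted p under 0.05, and DESeq2 called 0, beside 0.241% of all genes in either direction. Psmb6 was 67.0, 43.8 and 45.0 CPM in 3g and 62.5, 18.6, 34.5 and 30.4 CPM in 16p11.2, on 7 to 28 footprints a library, and the groups overlapped (log2 fold change -0.54 ± 0.37). The ratio of footprints to lysate RNA had a median line difference of -0.38 over 38 genes, 31 of them below 0, and 0 were called by edgeR with 4 at an unadjusted p under 0.05 and 0 by DESeq2, beside 0.0132% of all genes. Without the 16p11.2 wt animal RIBO-505 that median was -0.23, and without RIBO-301 it was -0.25. All 7 constitutive beta ring genes and all 6 ATPases had a lower ratio in 16p11.2, none of them called. The alpha ring genes went the other way in footprints. Over wt and del/+ animals their median shift in log2(CPM + 1) was -0.0885 in 3g (-0.967 to 0.681) and 0.0652 in 16p11.2 (-0.153 to 0.483), with overlapping ranges. Fitting the 13 animals with line and genotype as terms gave medians of 0.02 in lysate RNA, -0.28 in footprints and -0.44 for their ratio, and again 0 calls in each.

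As a share of all footprint counts the 40 genes were apart between the lines. They took 0.130, 0.131 and 0.125% in 3g wt animals and 0.113, 0.126 and 0.120% in 3g del/+ animals. In the 16p11.2 line they took 0.0974, 0.0668, 0.0675 and 0.0837% in wt and 0.0705, 0.0719 and 0.0767% in del/+ animals. The 6 shares of the 3g line were above the 7 of the 16p11.2 line. In lysate RNA the shares overlapped, with 0.0751 to 0.0918% in 3g and 0.0657 to 0.0885% in 16p11.2.

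Transcripts encoded in the mitochondrial genome went the opposite way between the lines, with overlapping ranges. They took 10.4 to 32.7% of the footprint counts in the 3g line and 29.7 to 41.3% in the 16p11.2 line. Among the remaining counts the proteasome genes took 0.146 to 0.179% in 3g and 0.102 to 0.140% in 16p11.2, which brought the lines closer without an overlap. After TMM scaling the shift of the 40 genes was 0.0966 to 0.375 in the 3g and -0.29 to 0.168 in the 16p11.2 footprint libraries, and these ranges overlapped. Which part of the difference the mitochondrial share accounts for was not tested. The median footprint shift was 0.213 in 3g and -0.096 in 16p11.2 for the proteasome genes. For nuclear oxidative phosphorylation genes it was 0.177 and -0.128. The other housekeeping lists also had a higher median shift in the 3g than in the 16p11.2 footprint libraries.

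**Figure D4:**
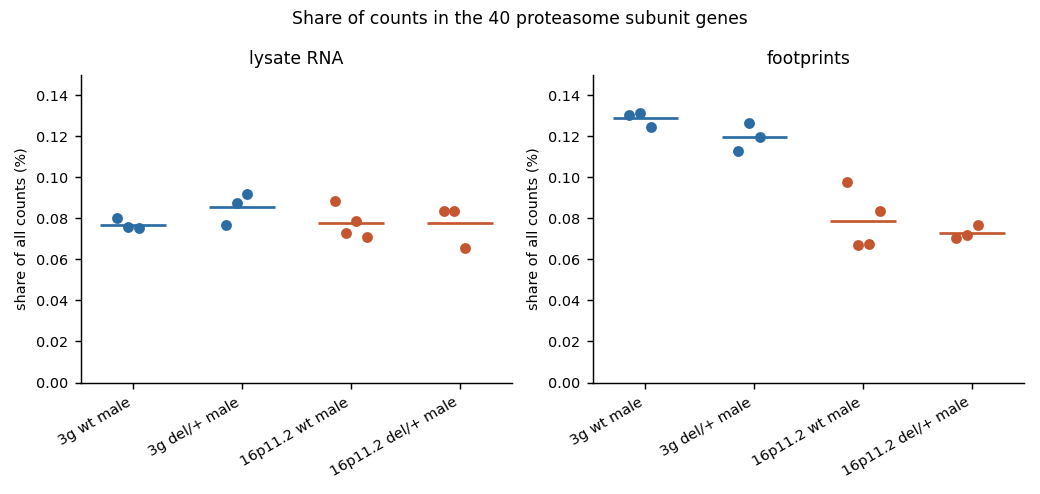
Share of all counts (%, axis from 0) that fell in the 40 proteasome genes, one point per animal with a bar at the group mean, in lysate RNA (left) and footprints (right) of the same lysates. In lysate RNA all groups lie between 0.0657 and 0.0918%, and in footprints the 3g animals (0.113 to 0.131%) lie above the 16p11.2 animals (0.0668 to 0.0974%).

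The next comparison asked whether either mutation changed proteasome mRNA. No subunit gene passed the test in any genotype comparison. In 3g males, Psmb5 was 29.8, 35.5, 36.9 and 37.3 CPM in del/+ and 62.5, 38.4, 35.1 and 35.4 CPM in wt libraries, where the highest value was 3g wt male 17, and the groups overlapped. The log2 fold change of del/+ over wt was -0.28 ± 0.17, with an interval of 2 standard errors from -0.63 to 0.07, and it was -0.05 ± 0.07 without that library. In 3g females Psmb5 was 37.6, 36.5, 33.9 and 37.5 CPM in del/+ against 36.4, 34.7, 36.8 and 38.4 CPM in wt, a log2 fold change of -0.01 ± 0.05 with an interval from -0.10 to 0.08.

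Over 39 genes tested in 3g males, 3 were above 0 and 36 below, with a median log2 fold change of -0.09, while without 3g wt male 17 it was 0.0039 with 21 above 0 and 18 below. EdgeR called 0 of 39, with 0 at an unadjusted p under 0.05 and 0 by DESeq2, beside 0% of all genes, also without that library. In 3g females 28 of 39 genes were above 0, the median was 0.05, and edgeR and DESeq2 called 0, with 3 at an unadjusted p under 0.05, beside 0.00526% of all genes. The interaction of genotype and sex was called for 0 of 39 genes by both tools, with 0 at an unadjusted p under 0.05 and beside 0% of all genes. Its median was -0.13, and -0.03 without 3g wt male 17.

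In 16p11.2 males, Psmb5 was 48.4, 39.3, 54.2 and 34.5 CPM in del/+ and 62.7, 54.0, 54.0 and 57.5 CPM in wt libraries, and the groups overlapped in 1 value. The log2 fold change was -0.37 ± 0.14 with an interval from -0.64 to -0.09 (adjusted p = 0.742), and -0.27 ± 0.12 without del/+ male 4. Psmc5, at 178, 173, 176 and 114 CPM in del/+ and 189, 171, 167 and 190.5 CPM in wt, had a log2 fold change of -0.16 ± 0.14, and -0.03 ± 0.08 without that library. Of 39 genes, 38 were below 0 in 16p11.2 males (median -0.15), and 31 without del/+ male 4 (median -0.05). Psmb5 was the gene with an unadjusted p under 0.05, both with and without that library.

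EdgeR called 0 of these 39 genes in 16p11.2 males, with 1 at an unadjusted p under 0.05 and 0 by DESeq2, beside 0.106% of all genes, and 0 without del/+ male 4 with 1 at an unadjusted p under 0.05, beside 0.105%. In 16p11.2 females 13 of 40 genes were above 0 and 27 below (median -0.04), with 0 called by both tools, 2 at an unadjusted p under 0.05, beside 0.144% of all genes. Those 2 were the ATPases Psmc2 (-0.20 ± 0.07) and Psmc4 (-0.18 ± 0.07), named after their values were seen. Without del/+ female 1 the median was -0.01, and again 0 were called with 2 at an unadjusted p under 0.05, beside 0.12% of all genes. The interaction of genotype and sex in 16p11.2 gave 0 of 40 by both tools, 0 at an unadjusted p under 0.05, beside 0% of all genes, with a median of -0.14. It was -0.05 without del/+ male 4, -0.16 without del/+ female 1 and -0.06 without both, with 0 called by edgeR each time.

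Lysate RNA and footprints gave no genotype calls either. In 3g lysate RNA 26 of 37 genes were above 0 (median 0.10), with 0 called by both tools and 6 at an unadjusted p under 0.05, beside 0.0209% of all genes. The highest value among the ATPases was Psmc5, at 80.9, 114 and 105 CPM in del/+ and 84.7, 79.6 and 62.6 CPM in wt animals, which overlapped, with a log2 fold change of 0.40 ± 0.14 (interval from 0.13 to 0.68, adjusted p = 0.94). In 16p11.2 lysate RNA the median was 0.02 over 37 genes, with 0 called by both tools and 0 at an unadjusted p under 0.05, beside 0.133% of all genes. For Psmc5 the interval was from -0.20 to 0.24.

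In 3g footprints the median was -0.07 over 30 genes, with 0 called by both tools and 0 at an unadjusted p under 0.05, beside 0.0132% of all genes. In 16p11.2 footprints it was -0.19 over 18 genes, with 0 called by both tools and 1 at an unadjusted p under 0.05, beside 0.117% of all genes. Footprints per lysate RNA had a median genotype difference of -0.17 over 38 genes in 3g (0 called by both tools, 0 at an unadjusted p under 0.05, beside 0% of all genes) and of -0.21 over 38 genes in 16p11.2 (0 called by both tools, 5 at an unadjusted p under 0.05, beside 0.00664% of all genes). Without the 16p11.2 wt animal RIBO-517 the last median was 0.04. Without the 3g wt animal RIBO-301 the median was 0.04 in 3g footprints and -0.05 in 3g footprints per lysate RNA. For Psmb5 the intervals of footprints per lysate RNA were from -1.07 to 0.50 in 3g and from -0.85 to 1.31 in 16p11.2, so both intervals include a 2-fold difference in at least 1 direction. The genotype and line comparisons use the same wt libraries and are not independent of each other.

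The last comparison asked how the footprints of each subunit stood to its lysate RNA in wt animals, relative to all genes, since the libraries were prepared differently. Of the 7 constitutive beta ring genes 5 were called higher in 3g, and 2 higher and 1 lower in 16p11.2. Of the 6 ATPases, 2 were called higher and 3 lower in 3g, and 2 higher and 4 lower in 16p11.2. The sets of 3 and 4 wt animals share no library. In 3g, 10 of 36 genes were called higher and 5 lower, beside 20.6% and 23.7% of the 13963 genes tested, and in 16p11.2, 5 of 36 were called higher and 10 lower, beside 21.4% and 25.2% of 13682. The median log2 ratio was 0.19 in 3g and 0.04 in 16p11.2, against -0.01 and -0.03 over all genes. Leaving out 1 animal gave 0.107 (without RIBO-301) to 0.378 (without RIBO-300) in 3g and 0.0201 (without RIBO-498) to 0.098 (without RIBO-517) in 16p11.2, where it was -0.0653 without the filter on low counts.

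**Figure D5:**
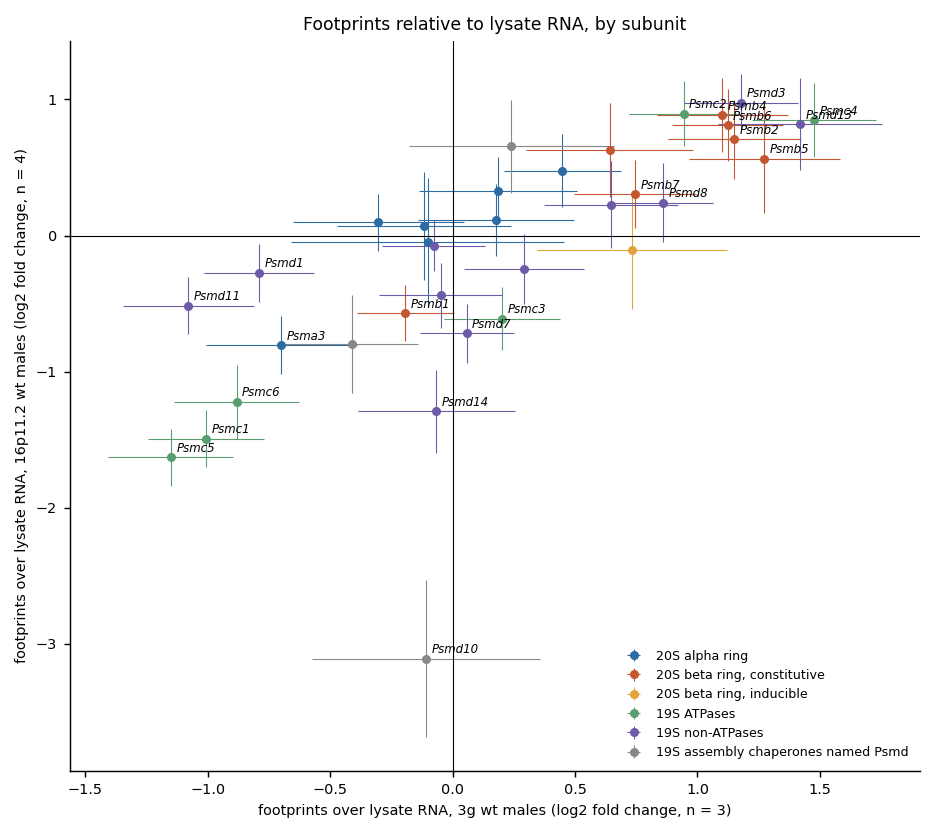
Log2 ratio of footprints to lysate RNA relative to all genes, with standard errors, in 3g wt males (x axis, n = 3) and 16p11.2 wt males (y axis, n = 4) for the proteasome genes tested in both lines, coloured by role. Names mark genes called in at least 1 line. Psmc1, Psmc5 and Psmc6 lie at the lower left and Psmb4, Psmb6, Psmc2, Psmc4 and Psmd3 at the upper right, while the position of Psmd10 in 16p11.2 rests on 3 footprints in all.

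Of the 15 genes called in each line, 9 were called in both with the same sign, which is 60% of either list, and 0 were called with opposite signs. Over all genes tested in both lines, 35% were called in both with the same sign, which is 78.3% of the 3g calls and 75.2% of the 16p11.2 calls. The sign was the same for 30 of 36 members (83.3%) and for 83.5% of all genes. Called higher in both were the beta ring genes Psmb4 (1.102 ± 0.27 in 3g and 0.89 ± 0.27 in 16p11.2) and Psmb6 (1.12 ± 0.23 and 0.81 ± 0.26), the ATPases Psmc2 (0.94 ± 0.22 and 0.90 ± 0.24) and Psmc4 (1.48 ± 0.25 and 0.85 ± 0.27), and Psmd3 (1.18 ± 0.23 and 0.98 ± 0.21). Called lower in both were the ATPases Psmc1 (-1.01 ± 0.24 and -1.49 ± 0.21), Psmc5 (-1.15 ± 0.26 and -1.63 ± 0.21) and Psmc6 (-0.88 ± 0.26 and -1.22 ± 0.27), and the lid subunit Psmd11 (-1.08 ± 0.27 and -0.52 ± 0.21). Subunits of the same ATPase ring were called in opposite directions in both lines. Calls in both directions were common over all genes, with 20.6% higher and 23.7% lower in 3g and 21.4% and 25.2% in 16p11.2.

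The values behind these calls show the depth. In the 3g wt animals Psmd3 was 79.0, 48.5 and 87.6 CPM in footprints and 19.7, 20.3 and 26.3 CPM in lysate RNA, on 33, 21 and 37 footprints. In the 16p11.2 wt animals it was 68.8, 31.8, 55.2 and 64.9 CPM in footprints and 18.96, 18.6, 22.6 and 21.0 CPM in lysate RNA. Psmd3 was higher in footprints in every animal. Psmc5 was 69.4, 48.5 and 28.4 CPM in footprints and 84.7, 79.6 and 62.6 CPM in lysate RNA of 3g wt animals, lower in footprints in each, on 29, 21 and 12 footprints. The locus of Psmc5 also overlaps a small nuclear RNA gene, whose part in its counts was not tested.

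The further calls are given by line, although the line difference of the ratio was called for 0 members by edgeR and by DESeq2. In 3g, Psmb5 (1.27 ± 0.31), Psmb7 (0.74 ± 0.25), Psmb2 (1.15 ± 0.27), Psmd13 (1.42 ± 0.33) and Psmd8 (0.86 ± 0.20) were called higher and Psmd1 (-0.79 ± 0.23) lower. In 16p11.2, Psmd14 (-1.29 ± 0.31), Psma3 (-0.81 ± 0.21), Psmd7 (-0.72 ± 0.22), Psmc3 (-0.61 ± 0.23) and Psmb1 (-0.57 ± 0.20) were called lower. Psmd10 was also called lower in 16p11.2, on 0, 0, 2 and 1 footprints against 171 to 208 lysate RNA counts in the 4 wt animals, too few for a fold. Psmd2 (-0.08 ± 0.21 and -0.07 ± 0.19), Psmd4 (0.29 ± 0.24 and -0.25 ± 0.25) and Psmb10 (0.73 ± 0.39 and -0.10 ± 0.43) were called in neither line. With the animal as a block, 14 genes were called in 3g and 13 in 16p11.2. Without the 3g wt animal RIBO-301 the calls in 3g fell to 9, and Psmc5 (adjusted p = 0.0583), Psmb5 (adjusted p = 0.0862) and Psmd13 (adjusted p = 0.101) were no longer called.

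Over all 13 animals, del/+ included, 29 genes passed the filter in footprints. Psmd3 had a log2 ratio above 0 in all 13 (0.354 to 1.93, median 1.19) and so did Psmb2 (0.645 to 1.86). Psmc1 was below 0 in all 13 (-1.77 to -0.672, median -1.24), as were Psmc5 (-3.37 to -0.697) and Psmc6. The median over the 29 genes was between 0.0164 and 0.48 in the 6 animals of the 3g line and ranged from -0.359 to 0.0521 in the 7 animals of the 16p11.2 line. The cytosolic ribosomal protein genes had medians between -2.25 and -1.66 in the same animals, all below those of the proteasome genes. The nuclear oxidative phosphorylation genes also tended higher in 3g, with 0.09298 to 0.5635 against -0.2279 to 0.1736 in 16p11.2. The mitochondrial ribosomal protein genes had 0.1672 to 0.3975 in 3g and -0.1825 to 0.3967 in 16p11.2.

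Among the partners, Rps27a (-2.73 in 3g and -2.16 in 16p11.2) was called lower in footprints in both lines, with the uncertainty of its copies named above. In 3g, further genes among those with the largest ratios were Nfe2l2 (2.29, and 0.05 without a call in 16p11.2), the activator subunit Psme1 (1.53), Uchl1 (1.41) and the deglycosylase Ngly1 (-1.17), and in 16p11.2 the shuttles Ubqln1 (-1.496) and Rad23b (-0.94), Uchl5 (-0.97) and the activator Psme3 (-0.84). In all, 3 of the 22 partner genes were called higher and 6 lower in 3g, and 1 higher and 5 lower in 16p11.2. Of the 16 ubiquitin genes, 4 were called higher and 5 lower in 3g, and 3 higher and 6 lower in 16p11.2. Over all genes, 20.6% were called higher and 23.7% lower in 3g, and 21.4% and 25.2% in 16p11.2.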

How the data were processed

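The values are whole-number counts per Ensembl gene as deposited by the authors, without normalization. The submitters' notes name HTSeq and mm10 for the RNA-seq counts and Bowtie2 and mm39 for lysate RNA and footprints. The study's methods name the bcbio-nextgen pipeline and a stranded total RNA kit with Ribo-Zero for RNA-seq, while the labels give polyA RNA as the molecule. The counting annotation, its strand setting and the making of the footprint counts are not given in the sources used here. Symbols were matched to 54409 of 54532 identifiers in the RNA-seq tables and 18377 of 18411 in the others.

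Genes were filtered with filterByExpr, scaled with TMM and tested with edgeR 4.0.16 (R 4.3.3, limma 3.58.1) by glmQLFit and glmQLFTest, with p-values adjusted (Benjamini-Hochberg) over all genes tested, and called at an adjusted p under 0.05. The test was first checked on simulated counts. Genotype was compared within line and sex, and line in wt animals. Footprints per lysate RNA were tested as an interaction of assay with genotype or line. Shifts used log2(CPM + 1). The alternatives were DESeq2 1.42.0, RLE normalization, no filter, pooled fits, blocks, a pseudocount of 0.1 and leaving out each library. The line by sex and line by assay interactions were added after the data were seen. So were the results given without the RNA-seq libraries that stood apart.

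Footprint and lysate RNA libraries of 1 animal number come from the same lysate by the labels, so the animal is their pair. Replicates are numbered by the labels and taken as separate animals, and p-values measure the spread between them. The members and gene lists were chosen with earlier results of these data known. Genes named are, in each comparison, the called members, or, above 8, the 4 highest and 4 lowest by log2 fold change, with Psmb5 to Psmb10, Psma3, the ATPases, Psmd1, Psmd2, Psmd4 and Psmd14, and the 6 called partner genes with the largest changes. Other members were named after their values were seen. A few genes that this rule or the marker lists would name are not reported here.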

Additional observations from a re-analysis of the deposited data

Results flagged for a closer look

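In groups of 4 libraries, a value was singled out where its gap to the nearest of the other 3, divided by the range, was above Dixon's critical value. This was checked for 84 pairs of a group and a measure, of which 11 were past it. Chance gives about 1 in 20 for a single check. The checks share libraries and genes that moved together, so 11 of 84 cannot be set against that rate.

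The library labelled 3g wt male 17 was far above the other 3g wt males in 6 of the 11. Its median shift of the 40 proteasome genes was 0.184 (others -0.216 to -0.17), and their share of its counts was 0.2938% (others 0.2419 to 0.2473%). Psmb5 was 62.51 CPM there (35.06 to 38.39), Psmb6 108.8 CPM (70.11 to 71.19), Psmc5 170 CPM (104.3 to 109.8) and Psmd14 78.05 CPM (57.17 to 60.54). The cortical marker Slc17a7 and the oligodendrocyte marker Mbp were also high in this library, and their part was not tested.

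The library labelled 16p11.2 del/+ male 4 had Psmc5 at 113.7 CPM, below 172.6 to 178.4 CPM in the other 16p11.2 del/+ males. The other 4 values came from 4 further libraries. Psmb8 was 1.269 CPM in 16p11.2 wt male 2 (2.082 to 2.15), Psmc5 was 109.2 CPM in 3g del/+ female 28 (117.3 to 118.8) and 106.6 CPM in 3g del/+ male 27 (112.6 to 113.8), and Psmd14 was 58.34 CPM in 3g wt female 29 (59.73 to 59.93).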

How the results depend on the processing

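The count of members called was within 1.5 times the reported one for 254 of 260 pairs of result and alternative. The exceptions were the line difference in wt males in RNA-seq, where 0 became 13 with DESeq2, 32 with line and genotype fitted over 16 libraries, 4 with no filter and 0 to 31 when 1 library was left out (31 without 3g wt male 17), the line difference in lysate RNA, where DESeq2 called 2, and footprints against lysate RNA in 3g wt males, where leaving out 1 animal gave 9 to 14 calls (9 without RIBO-301). The cause was not tested. The members' median log2 fold change moved by more than the SD of the median shift between replicate libraries in 31 of 260 such pairs. Most comparisons had 0 calls, where the count says little of how stable they are. Of the named genes, 24 of 425 such pairs lost their call and none changed sign, among them Psmc4 between the lines in females with line and genotype fitted over 16 libraries (adjusted p = 0.0792).

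The replicate numbers 1 to 4 shared by del/+ and wt libraries of the 16p11.2 line do not mark pairs (correlation of same-numbered libraries from -0.237 to 0.11 in males and -0.0681 to 0.121 in females), and the block on them left 0 members called in both sexes. With the animal as a block, 0 members were called for footprints per lysate RNA by genotype or line, and 14 in 3g and 13 in 16p11.2 for footprints against lysate RNA, where Psmb7 in 3g (adjusted p = 0.0599) and Psmc3 in 16p11.2 (adjusted p = 0.0527) lost their call. Footprint depth limits each subunit there.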
